A study of Mus musculus with 32 samples.

Results

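The mitochondrial ribosomal protein genes were followed in mouse gastrocnemius (GAS) muscle over 28 d of denervation. They were taken as every protein-coding gene of the deposited table whose symbol begins with Mrpl or Mrps followed by a number, which gave 77 genes of 33397, 48 named for the large ribosomal subunit (Mrpl) and 29 named for the small subunit (Mrps). All 77 passed the filter on low values. A further annotated gene of this kind has no row in the table and was not analysed here.

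Mitochondria carry ribosomes of their own, the mitoribosomes, which translate only the few messenger RNAs of the mitochondrial genome, all of them for subunits of the respiratory chain and ATP synthase. The ribosomal RNAs of these particles come from the mitochondrial genome, whereas every protein is encoded in the nucleus, translated in the cytosol and imported. Skeletal muscle is rich in mitochondria, and loss of the nerve lowers the mitochondrial content of its fibres.

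RNA had been sequenced from male C57BL/6 mice (C57BL/6J in the methods of the study) of 6 to 8 weeks whose left sciatic nerve was cut and a section removed. The groups were named by the day of sampling, C for 0 d and D1, D3, D5, D7, D14, D21 and D28 for the days after denervation, with 4 samples in each and 32 in all. The labels list nerve transection for the 0 d samples as well, and the methods of the study describe the sham group as operated in the same way without the cut. Since the table's columns give the time point but not the mouse, replicates are numbered by column order, and p-values measure the spread between these samples.

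The values are FPKM, fragments counted per length of exon and per total of mapped fragments, and stand for 14199901 to 17561584 fragments per sample. The 77 genes had between 24 and 4626 fragments in a sample. The labels' extraction text mentions retinas, but the 8 muscle fibre markers summed to 49353 to 51938 FPKM in C, and the 7 retina markers to at most 0.547 FPKM in any sample. On the first principal component of all genes, which held 47.3% of the variance, D3 replicate 1 stood at -18.5 and the other D3 samples at 1.15 to 6.40, so the D3 counts are also given without it, a choice made after seeing the data for the other lists, for the subunits and roles, and for the scalings other than the deposited one. The share of fragments from the mitochondrial genome was 14.5% to 18.2% in C and 6.70% to 11.3% in D7, so it changes how much of the total is left for nuclear genes. For this reason the deposited values are given beside median-ratio scaling, which sets the samples to the same typical gene, and the calls that held in all of 4 scalings (as deposited, median-ratio, TPM and quantile) are named. The median log2 difference from C over the 11943 genes that averaged 1 FPKM or more was 0.12 to 0.32 across the 7 days before and between -0.04 and 0.01 after this scaling.

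Differences are log2(FPKM + 1) of the group minus that of C, with the standard error, from a limma fit of all 32 samples and 22071 genes. A gene was called higher or lower at a Benjamini-Hochberg adjusted p under 0.05. The pseudocount of 1 understates the change of genes of low level. All 7 comparisons share the same 4 C samples.

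Mitoribosomal protein genes were called in both directions. Of the 77, 68 were called on at least 1 day, against 71.1% of all genes tested, and 9 on none. On the deposited scale 32 were called only as higher (background 51%), 28 only as lower (15.1%) and 8 in both directions on different days (5%). Among the 11943 genes that averaged 1 FPKM or more, 89.6% were called on at least 1 day, 63% only as higher, 18.4% only as lower and 8.22% in both directions. The mean over the 7 days of the log2 difference ran from -0.68 for Mrpl42 to 0.56 for Mrpl24. Levels in C spanned 0.722 to 89.8 FPKM, with a median of 14.1 FPKM. Spearman's rho across the 77 genes between the level in C and the mean difference was -0.31, a description only, since the 2 measures share the C samples and genes are not independent replicates.

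**Figure D1:**
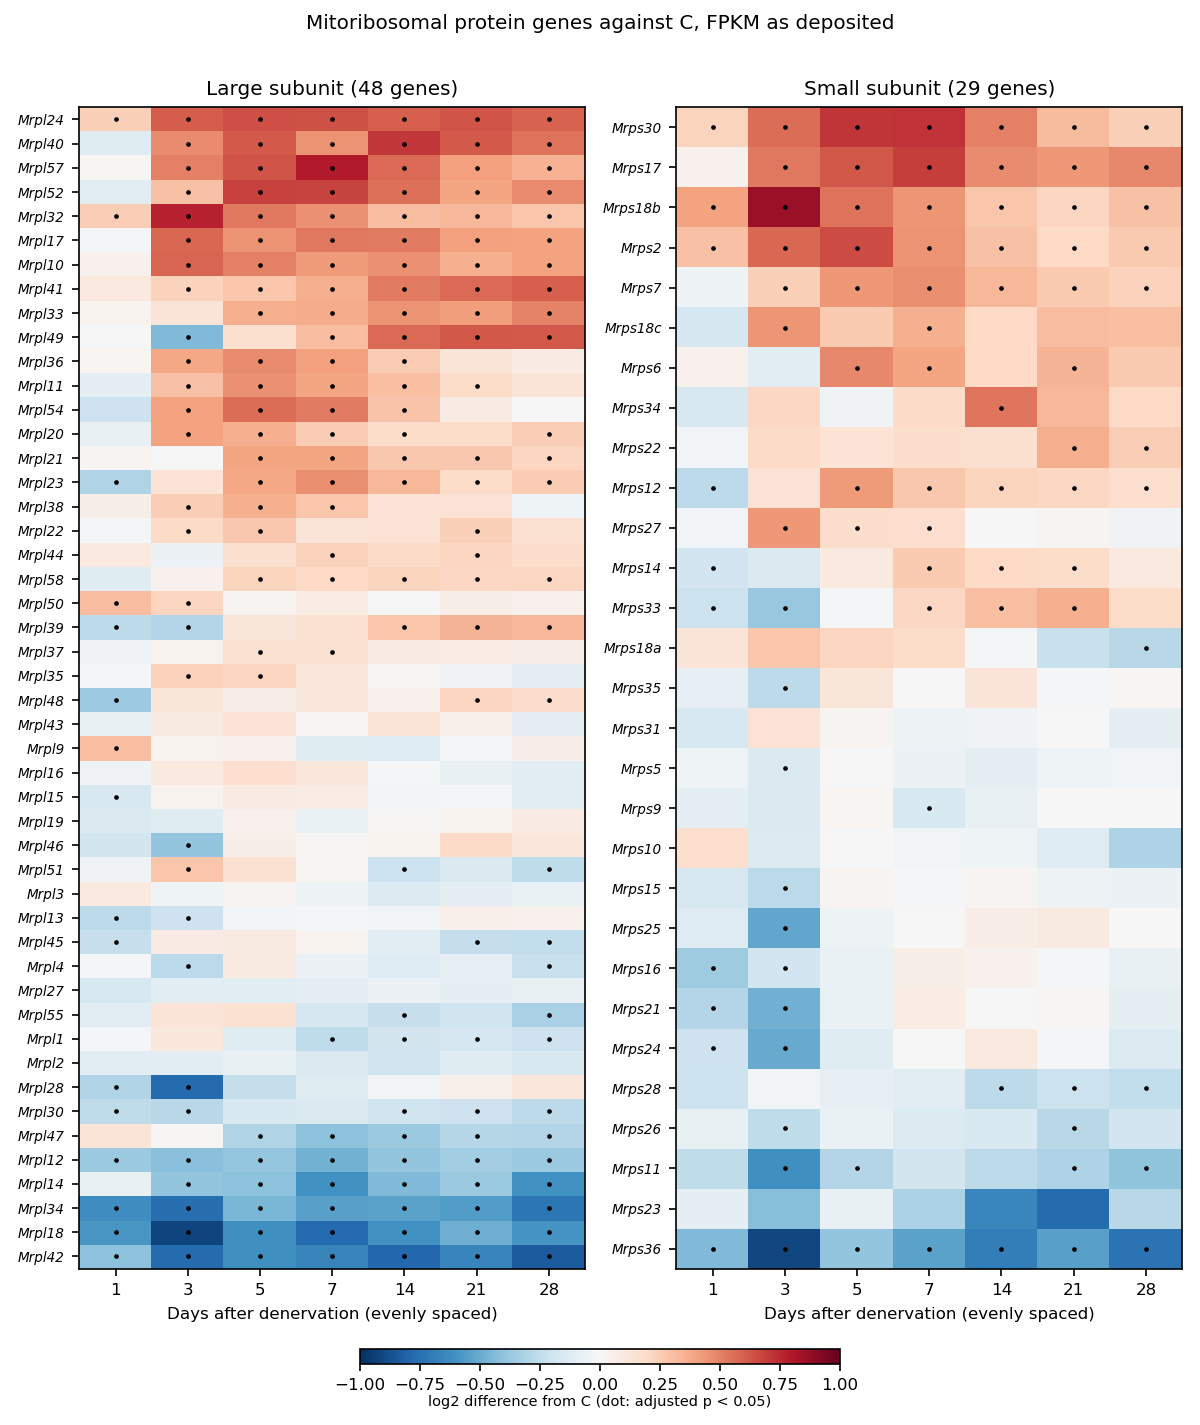
Heat map of the log2 difference from C of each of the 77 genes (rows, in order of their mean) at each day (columns, evenly spaced), for the large and the small subunit. A dot marks an adjusted p under 0.05 on the deposited scale. Mrpl24 and Mrps30 stand at the top and Mrpl42 and Mrps36 at the bottom of their subunits.

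The promoters are shown first, since genes that share a motif stood on both sides of C as deposited. Windows of 250 bases before and 50 bases after the start (RefSeq, GRCm38.p6) were found for 68 of the 77 genes, 74 windows in all, and a gene was counted when any of its windows held the letters. Motifs were searched on both strands as exact letters, GCGCANGCG for NRF-1, CCGGAAG for the ETS family that includes GABP, and AAGATGGC for YY1. These factors are known to drive nuclear genes for mitochondrial proteins. The NRF-1 letters were found for 16 of the 68 genes (23.5%) against 9.63% of 17491 protein-coding genes with 21262 windows. The ETS letters were found for 25 (36.8%) against 12.9%, and the YY1 letters in 12 (17.6%) against 3.57%. At least 1 of these motifs was found for 43 genes (63.2%) against 22.8%.

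Each of the following pairs shares a motif and was picked to hold a gene with a negative and a gene with a positive mean difference as deposited. The stretches are the 120 bases before the start, read 5′ to 3′ on the strand of the gene, with the motif in capitals, first for ETS (Mrpl34 and Mrpl52), then for NRF-1 (Mrpl12 and Mrpl57) and then for YY1 (Mrps11 and Mrpl36). All lie on the plus strand, Mrpl34 at chr8:71464806-71464925, Mrpl52 at chr14:54426789-54426908, Mrpl12 at chr11:120484517-120484636, Mrpl57 at chr14:57826119-57826238, Mrps11 at chr7:78783011-78783130 and Mrpl36 at chr13:73330889-73331008.
Mrpl34: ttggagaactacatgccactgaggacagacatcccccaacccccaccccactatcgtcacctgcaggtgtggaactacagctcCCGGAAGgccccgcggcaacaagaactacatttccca
Mrpl52: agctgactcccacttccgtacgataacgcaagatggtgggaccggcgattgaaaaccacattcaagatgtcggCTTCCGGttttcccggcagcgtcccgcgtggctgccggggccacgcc
Mrpl12: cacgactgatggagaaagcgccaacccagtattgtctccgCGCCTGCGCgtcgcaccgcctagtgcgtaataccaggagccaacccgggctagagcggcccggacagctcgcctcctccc
Mrpl57: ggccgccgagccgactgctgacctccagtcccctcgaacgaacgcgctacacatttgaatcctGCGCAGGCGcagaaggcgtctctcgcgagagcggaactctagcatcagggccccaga
Mrps11: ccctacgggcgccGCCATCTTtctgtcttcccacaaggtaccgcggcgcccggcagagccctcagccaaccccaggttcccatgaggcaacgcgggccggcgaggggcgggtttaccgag
Mrpl36: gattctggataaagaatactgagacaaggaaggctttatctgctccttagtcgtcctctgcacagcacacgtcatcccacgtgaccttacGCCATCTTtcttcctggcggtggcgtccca

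In these 6 genes the mean log2 difference over the 7 days, as deposited, was -0.60 for Mrpl34 and 0.42 for Mrpl52. It was -0.39 for Mrpl12 and 0.47 for Mrpl57, and -0.33 for Mrps11 and 0.25 for Mrpl36. After median-ratio scaling the means were -0.93 and 0.10, -0.72 and 0.16, and -0.60 and -0.08 in the same order. Both genes of the YY1 pair thus lay below C on that scale. Over the 68 genes, the median of the mean as deposited was 0.06 in the 16 genes with the NRF-1 letters and 0.06 in the 52 without. For ETS it was 0.06 with and 0.02 without, and for YY1 0.09 with and 0.03 without. The genes with a motif ran from -0.41 to 0.47 for NRF-1, from -0.65 to 0.47 for ETS and from -0.68 to 0.42 for YY1, and the genes without the NRF-1 letters from -0.68 to 0.56.

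A further shared feature was the arrangement of starts. Of the 77 genes, 18 (23.4%) had the start of a protein-coding gene on the opposite strand within 1000 bases, pointing away from them, against 7.83% of protein-coding genes. Mrpl49 starts 59 bases from Fau, which encodes a cytosolic small-subunit ribosomal protein fused to a ubiquitin-like sequence. At D3 Mrpl49 differed from C by -0.44 and Fau by 0.73, and at D28 they differed by 0.62 and 1.02. Mrpl32, 75 bases from the proteasome subunit gene Psma2, differed by 0.77 at D3 and Psma2 by 1.56. Mrps18b, 45 bases from Ppp1r10, differed by 0.87 at D3 and its neighbour by 0.78. Mrps12 starts 172 bases from Sars2, the mitochondrial seryl-tRNA synthetase gene, and neither was called at D3 (0.14 and -0.14, adjusted p = 0.096 and 0.25, limma). Of the 18 pairs, 7 had both genes called at D3, 6 of them with the same sign and 1, Mrpl49 and Fau, with opposite signs. Among the 646 such pairs of protein-coding genes with both genes tested, 37.3% had both called at D3, and 68% of those had the same sign, so the number of pairs with both called was near that share.

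The first question was how many of the genes changed at each day. At D1, 7 genes were called higher and 19 lower, against 20.4% higher and 9.01% lower of all genes tested. At D3, 24 were higher and 23 lower, against 29% and 14.3%, and without D3 replicate 1 the counts were 25 and 22. At D5, 28 were higher and 8 lower (background 36.1% and 9.52%). At D7, 31 were higher and 9 lower (37.1% and 10.1%). At D14, 27 were higher and 12 lower (38% and 9.25%). At D21, 28 were higher and 13 lower (31.7% and 10.1%), and 8 lower without C replicate 1 or without D21 replicate 4. At D28, 23 were higher and 16 lower (37.8% and 9.85%). Among the 11943 genes that averaged 1 FPKM or more, 33.1% were higher at D1, 45.2% at D3 and 47.4% to 55.6% at the later days, and 18.7% were lower at D3 and 12.1% to 13.5% at the other days. The share of the 77 called higher, 9.09% at D1 and 29.9% to 40.3% later, was below that of these genes at every day, although it was close to that of all genes from D3 to D21. The share called lower was above both backgrounds at D1 (24.7%), D3 (29.9%), D14 (15.6%), D21 (16.9%) and D28 (20.8%) and near them at D5 and D7.

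Most of these differences were small. With a change of at least 1.5-fold also required, 0 genes were higher and 1 lower at D1 (background 6.34% and 2.49%), and 3 were higher and 6 lower at D3 (13.2% and 6.03%), or 5 and 5 without D3 replicate 1. On the deposited scale the counts were 7 and 2 at D5 (14.9% and 3.86%), 5 and 3 at D7 (15.4% and 4.1%), 2 and 3 at D14 (14.6% and 3.83%), 3 and 1 at D21 (11.8% and 3.93%) and 3 and 5 at D28 (14.2% and 4.1%). Higher genes of this size were thus rarer among the 77 than among all genes at every day. After median-ratio scaling the counts at 1.5-fold were 0 higher and 4 lower at D1, 1 and 14 at D3 (0 and 16 without D3 replicate 1), 0 and 9 at D5, 0 and 8 at D7, 0 and 12 at D14, 0 and 7 at D21, and 0 and 14 at D28. Of all genes, 3.93% to 8.31% were higher and 5.06% to 9.8% lower by this measure.

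After median-ratio scaling the balance turned. At D1, 0 genes were higher and 44 lower, with a background of 13.6% and 18.7%. D3 had 11 higher and 35 lower (20.5% and 23.9%), and 8 and 45 without D3 replicate 1. D5 had 8 and 43 (18.8% and 20.6%), and D7 had 7 and 41 (20% and 20.7%). D14 had 4 and 42 (19.3% and 19.7%), D21 had 5 and 35 (18.6% and 19.8%), and D28 had 5 and 44 (20.5% and 19.9%). Of the genes that averaged 1 FPKM or more, 21.2% to 31% were higher and 26.2% to 31.8% lower at these days after this scaling. The median log2 difference of the 77 genes was -0.08, 0.04, 0.12, 0.10, 0.04, 0.05 and 0.04 from D1 to D28 as deposited, and between -0.29 and -0.20 at every day after median-ratio scaling. No direction for the whole family is therefore given. In bulk muscle, fewer cells of a type and less RNA per cell cannot be told apart.

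**Figure D2:**
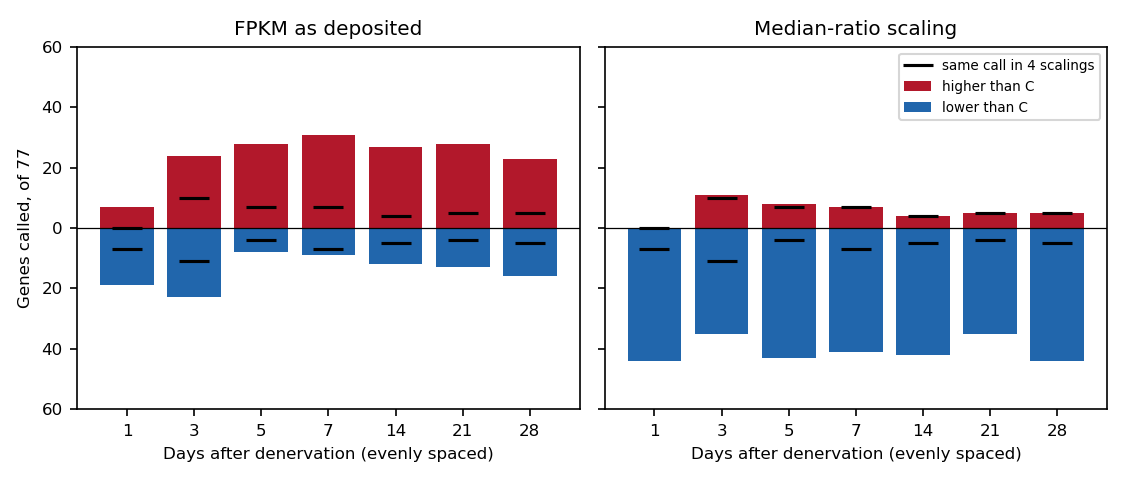
Number of the 77 genes called higher (red, upward) and lower (blue, downward) than C at each day, as deposited and after median-ratio scaling. Black dashes give the genes with the same call in 4 scalings, for example 10 higher and 11 lower at D3.

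Calls that did not depend on the scaling were fewer and ran in both directions. In all 4 scalings, 0 genes were higher and 7 lower at D1, where 13.5% and 6.06% of the 21909 genes tested in each scaling had such calls. At D3 the counts were 10 and 11 (background 20.2% and 10.6%), and 8 and 12 without D3 replicate 1. They were 7 and 4 at D5 (18.3% and 6.53%), 7 and 7 at D7 (19.2% and 6.8%), 4 and 5 at D14 (17.8% and 6.28%), 5 and 4 at D21 (17.5% and 7.27%), and 5 and 5 at D28 (18.4% and 6.9%). Higher calls of this kind were thus rarer among the 77 than among all genes at every day. Over the course 14 genes were called higher (background 38%) and 17 lower (14.9%) on some day in this way, and Mrpl49 was called both ways. Mrpl18, Mrpl34, Mrpl42 and Mrps36 were lower at all 7 days in all 4 scalings. Mrpl24 and Mrpl40 were higher in all 4 scalings at 5 days each.

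Mrpl42 (chr10:95480805-95501940, GRCm38, minus strand) encodes a large-subunit protein and had the highest level of its subunit in C. Its FPKM in C was 59.9, 70.1, 72.6 and 81.5, and in D28 it was 35.2, 38.6, 40.3 and 43.5. The groups did not overlap, and the difference was -0.83 ± 0.10 (limma adjusted p = 6.3e-08, n = 4 per group) and -1.20 after median-ratio scaling. Mrpl18 (chr17:12911349-12916345, minus strand), whose product lies at the central protuberance and is the counterpart of the bacterial protein that binds 5S ribosomal RNA, had 26.1, 26.9, 29.1 and 29.6 FPKM in C. At D1 it already had 17.0, 18.4, 19.0 and 19.0 FPKM, and at D3 13.4, 14.4, 14.6 and 14.8 FPKM. The D3 difference was -0.92 ± 0.07 (adjusted p = 8.8e-12), and -0.93 without D3 replicate 1. All later samples of Mrpl18 stayed below every C sample, with 16.9 to 18.9 FPKM at D28.

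Mrpl34 (chr8:71464959-71465747, plus strand) encodes the counterpart of bacterial L34. It had 44.8, 55.9, 58.0 and 58.2 FPKM in C and 28.1, 30.2, 33.2 and 35.2 FPKM in D3, a difference of -0.75 ± 0.09 (adjusted p = 2.9e-08). Its level at D5 was 36.6 to 41.7 FPKM, and at D28 29.6 to 35.8 FPKM, again below every C sample. Mrpl14, a protein of the face that meets the small subunit, had 26.9, 33.3, 34.5 and 39.1 FPKM in C and 20.3, 20.7, 22.2 and 22.5 FPKM in D28 (-0.61 ± 0.11, adjusted p = 2.3e-05). It differed little at D1 (-0.07 ± 0.11), when its samples overlapped those of C.

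Mrps36 (chr13:100735955-100744659, minus strand) was the fourth gene that was lower throughout. Despite its name, its product is known as a subunit that joins the oxoglutarate dehydrogenase complex of the citric acid cycle and is absent from structures of the mitoribosome. It had 29.5, 32.0, 34.7 and 36.2 FPKM in C, 15.8, 17.2, 17.4 and 18.1 FPKM in D3 and 17.9, 18.7, 20.03 and 21.2 FPKM in D28. The D3 difference was -0.91 ± 0.09 (adjusted p = 5.3e-10) and the D28 difference -0.74 ± 0.09 (adjusted p = 3.4e-08). At D5 its samples reached 22.3 to 27.2 FPKM, still below C. The annotation holds 3 processed pseudogenes named after Mrps36, and how reads were shared with them is not given in the sources used here.

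Mrpl24 (chr3:87919506-87923672, plus strand), which lines the tunnel through which the new protein leaves, had the highest mean difference over the 7 days of the large subunit. It had 12.6, 15.5, 15.6 and 15.7 FPKM in C, 16.9 to 18.2 FPKM in D1 and 22.8, 23.3, 24.5 and 24.5 FPKM in D5. Every sample after denervation lay above every C sample. The D5 difference was 0.65 ± 0.06 (adjusted p = 2.2e-09) and 0.27 after median-ratio scaling (adjusted p = 0.024). Mrpl24 shares 594 of its 2255 exon bases with Rrnad1 on the opposite strand, and whether counting used strand is not stated.

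Mrpl40 (chr16:18872018-18876862, minus strand), also of the central protuberance, had 10.98, 11.46, 13.16 and 14.04 FPKM in C and 10.5 to 11.8 FPKM in D1. It had 19.5, 20.5, 21.4 and 21.8 FPKM in D14, a difference of 0.71 ± 0.08 (adjusted p = 9.8e-09) and of 0.33 after median-ratio scaling. Mrpl40 and Mrpl18, neighbours in the same feature of the particle, thus moved apart. Mrpl57 (chr14:57826234-57829296, plus strand) had 7.76, 8.45, 8.98 and 9.73 FPKM in C and 13.02, 14.04, 17.72 and 19.09 FPKM in D7 (0.79 ± 0.09, adjusted p = 1.7e-08). By D28 it had 10.3 to 12.3 FPKM, which gave a deposited-scale difference of 0.35 and one of 0.01 after median-ratio scaling. Mrpl52 had 16.3, 18.3, 18.8 and 19.6 FPKM in C and 28.5, 29.1, 29.7 and 32.2 FPKM in D5 (0.68 ± 0.08, adjusted p = 3.5e-08). After median-ratio scaling it was higher than C at D5 and D7 only (0.30 at both).

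**Figure D3:**
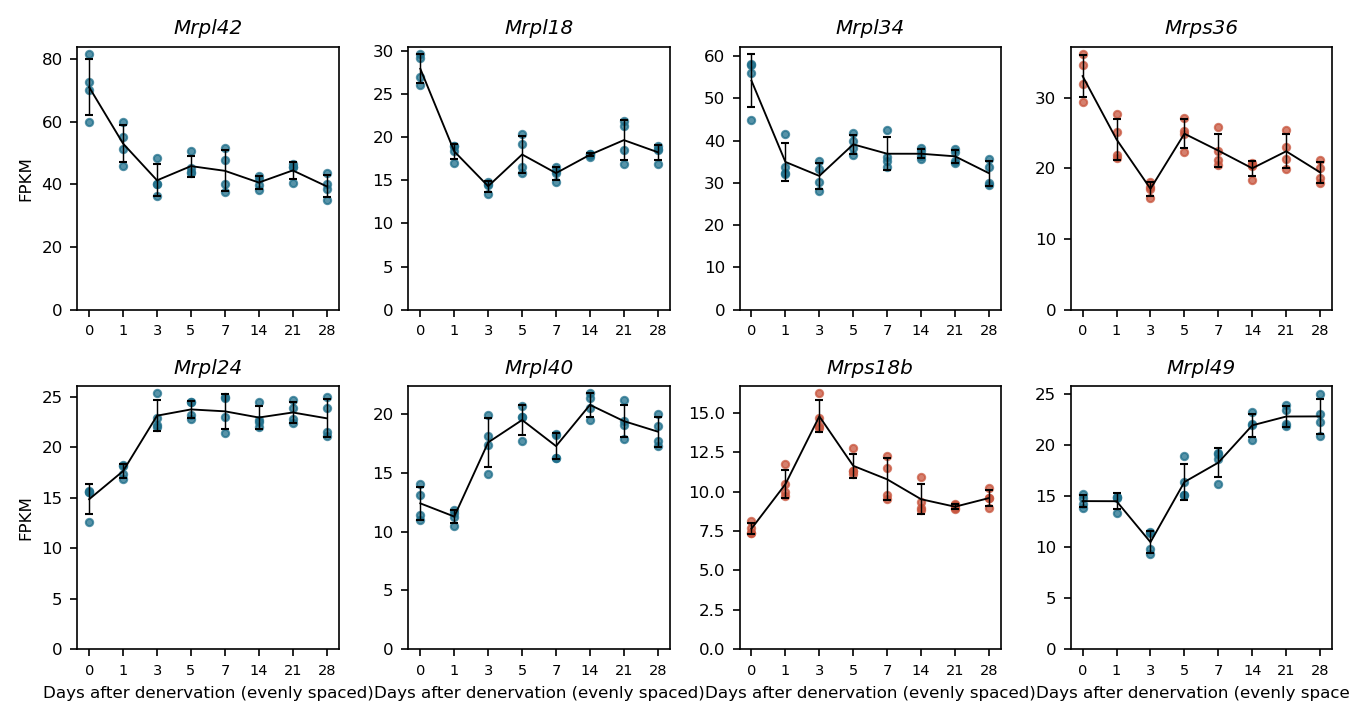
FPKM of 8 genes in each of the 32 samples (points) with the mean and SD of the 4 samples (line and bars) against day, evenly spaced, with 0 for C. Large-subunit genes are blue and small-subunit genes red. The first 4 panels fall below C and stay there, Mrpl24 and Mrpl40 rise, Mrps18b peaks at D3, and Mrpl49 dips at D3 before it rises.

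Mrps18b (chr17:35910379-35916389, minus strand), 1 of 3 mammalian relatives of bacterial S18, had the largest rise at D3. It had 7.39, 7.40, 7.70 and 8.11 FPKM in C and 14.1, 14.2, 14.7 and 16.3 FPKM in D3. The difference was 0.87 ± 0.07 (adjusted p = 3.7e-11), 0.62 after median-ratio scaling and 0.82 without D3 replicate 1. At D28 it had 8.97 to 10.2 FPKM, a difference of 0.29 as deposited and -0.04 after median-ratio scaling. Mrps18c differed by 0.44 ± 0.13 at D3 (adjusted p = 0.0066), and Mrps18a by 0.27 ± 0.11 (adjusted p = 0.053) at D3 and -0.28 ± 0.11 (adjusted p = 0.045) at D28. All 3 relatives were called higher at D3 when D3 replicate 1 was left out, as were 33.1% of all genes, but only Mrps18b was after median-ratio scaling. All 3 had their highest mean level at D3, and their courses were not tested against each other. Mrps18b shares 638 of 2089 exon bases with an antisense gene, Gm16279.

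Mrps30 (chr13:118378381-118387252, minus strand) is named for the small subunit, but its product lies in the large subunit in structures. It had 1.94, 2.02, 2.33 and 2.38 FPKM in C and 3.69, 4.13, 4.54 and 4.56 FPKM in D7 (0.72 ± 0.07, adjusted p = 1.2e-09), and 2.37 to 3.22 FPKM in D28, which overlaps C. Mrps17, the counterpart of bacterial S17, had 5.54 to 6.35 FPKM in C and 9.29 to 11.4 FPKM in D7 (0.69 ± 0.06, adjusted p = 2.8e-10). Mrps2, the counterpart of bacterial S2, had 5.81 to 6.66 FPKM in C and 9.86 to 10.9 FPKM in D5 (0.65 ± 0.07, adjusted p = 6.7e-09). All 3 were higher in 4 scalings at D3 and D5.

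At the lower end of the small subunit, Mrps11 of the platform had 2.81, 3.45, 3.71 and 4.48 FPKM in C and 1.59, 1.83, 2.17 and 2.43 FPKM in D3 (-0.61 ± 0.11, adjusted p = 4.1e-05). Without D3 replicate 1 the difference was -0.55. Mrps26 was called lower at D3 and D21, with 6.09 to 7.39 FPKM in C and 4.72 to 6.34 FPKM in D21 (-0.28 ± 0.10, adjusted p = 0.022), and this call was lost on the TPM scale and when C replicate 1 or 2 or D21 replicate 1 or 4 was left out. Mrps23 had a low mean but was called on no day as deposited, and its samples were spread from 4.66 to 20.95 FPKM in D21 (-0.77 ± 0.33, adjusted p = 0.060). That difference was -1.10 without D21 replicate 1 (adjusted p = 0.0061) and -0.45 without D21 replicate 2 (adjusted p = 0.30). It also passed with the filter raised to an FPKM of 1 (adjusted p = 0.043), in limma-voom (0.049) and after quantile normalization (0.014). After median-ratio scaling Mrps23 passed the threshold at D14 and D21.

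Several genes turned at D3. Mrpl49 (chr19:6053622-6057785, minus strand) had 13.9, 14.2, 14.8 and 15.2 FPKM in C and 9.29, 9.82, 11.4 and 11.5 FPKM in D3 (-0.44 ± 0.07, adjusted p = 8.8e-06). By D28 it had 20.9, 22.3, 23.1 and 25.0 FPKM, above every C sample (0.62 ± 0.07, adjusted p = 3.3e-08, and 0.26 after median-ratio scaling). Mrps21, the most abundant of the small subunit, had 83.9 to 97.4 FPKM in C and 58.8 to 69.9 FPKM in D3 (-0.48 ± 0.09, adjusted p = 2.6e-05). It had 79.9 to 92.8 FPKM in D5, which overlaps C. Mrpl28, named after its values were seen, had 19.9 to 26.4 FPKM in C, 9.27 to 17.5 FPKM in D3 (-0.77 ± 0.11, adjusted p = 1.8e-06) and 24.2 to 28.4 FPKM in D28. Mrpl32, whose maturation by a protease of the inner membrane is a step of mitoribosome assembly, moved the other way, with 6.56 to 8.05 FPKM in C and 11.6 to 16.2 FPKM in D3 (0.77 ± 0.07, adjusted p = 7.7e-10).

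The least abundant genes were Mrpl33 and Mrps10. Mrpl33 had 0.585 to 0.843 FPKM in C and 1.14 to 1.67 FPKM in D28 (0.49 ± 0.08, adjusted p = 3.4e-06). Its annotated exons span 7326 bases in total, among them 261 shared with Gm43809, which lowers a level given per length. Mrps10 had 0.348 to 1.87 FPKM in C and was called on no day. Of the 77 genes, 32 share exon bases with another gene, and the counting rule for such bases is not given in the sources used here.

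A ratio of 2 genes in the same sample needs no scaling. The extremes of each subunit were set against each other, with no test because they were picked from these samples. Mrpl24 over Mrpl42 was 0.192 to 0.223 in C, 0.290 to 0.395 in D1, 0.524 to 0.629 in D3 and 0.550 to 0.621 in D28. Mrps30 over Mrps36 was 0.0581 to 0.0728 in C, 0.189 to 0.241 in D3 and 0.118 to 0.172 in D28. Neither ratio overlapped C at any day, so the proportions of these messages differed from C in every sample from D1 onwards.

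The second question was whether the subunits differed. As deposited, the 48 large-subunit genes counted 4 higher and 12 lower at D1, 17 and 12 at D3, 20 and 6 at D5, 20 and 7 at D7, 18 and 10 at D14, 18 and 9 at D21, and 16 and 12 at D28. The 29 small-subunit genes counted 3 and 7, 7 and 11, 8 and 2, 11 and 2, 9 and 2, 10 and 4, and 7 and 4. Without D3 replicate 1 the D3 counts were 16 and 11 for the large and 9 and 11 for the small subunit. The shares of all genes given above, such as 29% higher and 14.3% lower at D3 and 37.1% and 10.1% at D7, apply to these counts as well, and several counts lie near them. After median-ratio scaling the large subunit counted 0 higher and 26 lower at D1, 6 and 21 at D3, 5 and 26 at D5, 5 and 27 at D7, 3 and 27 at D14, 5 and 21 at D21, and 5 and 29 at D28. The small subunit counted 0 and 18, 5 and 14, 3 and 17, 2 and 14, 1 and 15, 0 and 14, and 0 and 15. At D3 these became 5 and 29 for the large and 3 and 16 for the small subunit when D3 replicate 1 was left out. The gap was widest at D3, when the median log2 difference was 0.08 for the large and -0.14 for the small subunit. Taken from the fitted gene differences, large minus small was 0.22 at D3 as deposited, 0.20 without D3 replicate 1, 0.13 after median-ratio scaling and 0.09 after quantile normalization. The value of 0.22 was not stable, since every omission of 1 sample gave a smaller one, from 0.15 to 0.21. Computed within each D3 sample and then averaged, large minus small was 0.14 on the deposited scale and 0.15 with median-ratio scaling. By that measure the scaling hardly moved the gap.

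In single samples, the large-subunit median minus the small-subunit median was -0.04 to 0.02 in C and 0.09 to 0.19 in D3. It was 0.01 to 0.07 in D1, 0.06 to 0.11 in D5, -0.01 to 0.07 in D7, -0.03 to 0.04 in D14, 0.01 to 0.07 in D21 and -0.0005 to 0.12 in D28. The samples of D3 and D5 thus lay above those of C, and those of the other 5 days overlapped C. When Mrps30 and Mrps18a were counted with the large subunit, as in structures, and Mrps36 was left out, the D3 samples stood at 0.15 to 0.23 as deposited. The D1 samples, at 0.02 to 0.09, also lay above the C samples, at -0.02 to 0.01, on that scale. After median-ratio scaling the D1 samples, at 0.0008 to 0.08, overlapped the C samples, at -0.02 to 0.01. The summed FPKM of the large subunit was 1.84 to 1.94 times that of the small subunit in C and 1.94 to 2.15 times in D3. These ranges just overlapped, with 1.94276 in the highest C sample and 1.94272 in the lowest D3 sample.

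**Figure D4:**
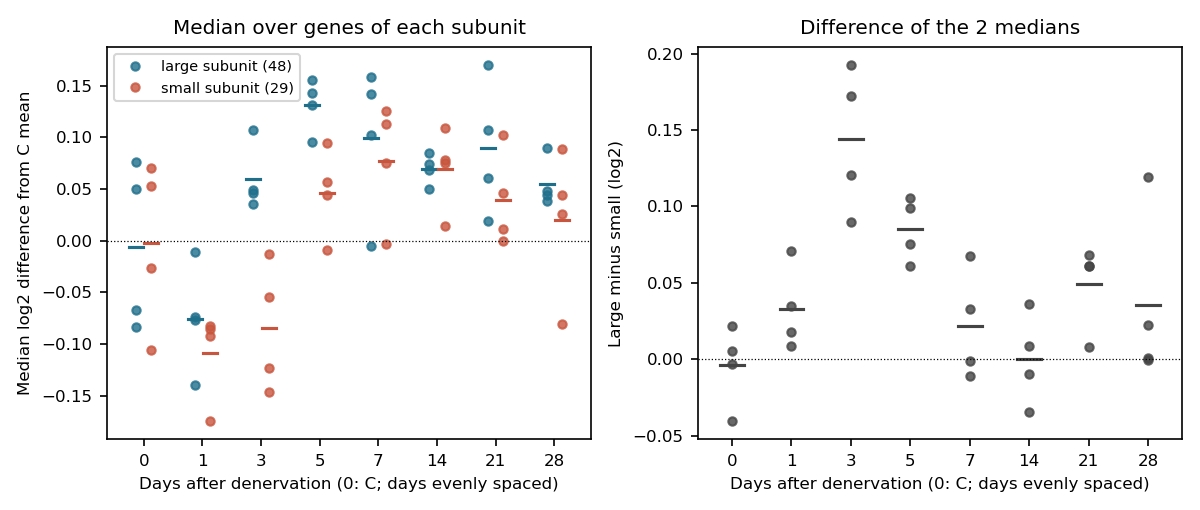
Left, median over genes of the log2 difference from the C mean in each sample for the large (blue) and small (red) subunit, with group means as bars. Right, large minus small in the same samples. Days are evenly spaced. On the right the 4 D3 samples stand at 0.09 to 0.19, and the 4 C samples at -0.04 to 0.02.

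By role, several features of the particle held genes called in opposite directions. The counts by role are of 4 to 7 genes, and the background to read them against as deposited is 29% higher and 14.3% lower at D3 and 37.8% and 9.85% at D28. After median-ratio scaling the background is 20.5% higher and 23.9% lower at D3 and 20.5% and 19.9% at D28. In the stalk that recruits translation factors, Mrpl10 was higher at D3 (0.58 ± 0.09, adjusted p = 3.3e-06) and Mrpl12 lower (-0.41 ± 0.10, adjusted p = 0.00082). Mrpl12 was lower at all 7 days as deposited, with 26.1 to 30.8 FPKM in C and 17.4 to 23.2 FPKM in D7. In all 4 scalings Mrpl10 was higher at D3, whereas Mrpl12 was lower at D7 and not at D3. The third stalk gene, Mrpl11, was higher at 5 days as deposited (0.46 ± 0.06 at D5, limma adjusted p = 8.8e-07) and at 0 days in all 4 scalings. Of 6 exit tunnel genes, 3 were higher and 0 lower at D3, and 3 and 2 at D28, among them Mrpl17 (0.57 ± 0.07 at D3, adjusted p = 7.0e-08). Of 6 genes of the central protuberance, 2 were higher and 2 lower at both D3 and D28, and 1 higher and 2 lower at D3 and 1 and 4 at D28 after median-ratio scaling. That scaling gave the exit tunnel genes 2 higher and 0 lower at D3, and 1 and 2 at D28.

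The 5 genes near the peptidyl transferase centre, where the peptide bond is made, had few calls as deposited, with 0 higher and 1 lower at both D3 and D28. After median-ratio scaling, 4 of these 5 were lower at D3 and 5 at D28 (background 23.9% and 19.9%). Mrpl58, a hydrolase that frees stalled chains, was higher from D5 to D28 by 0.20 to 0.22 as deposited and was not called at those days after median-ratio scaling. In the small subunit, the 7 head genes counted 1 higher and 2 lower at D3 and 1 and 0 at D28, and 0 and 4 at D3 and 0 and 3 at D28 after median-ratio scaling. The 4 genes of the decoding centre and messenger channel counted 1 higher and 2 lower at D3 and 2 and 0 at D28, and 1 and 2 at D3 and 0 and 2 at D28 after median-ratio scaling. Leaving out D3 replicate 1 gave the same D3 counts as deposited for these roles, except for 1 higher near the peptidyl transferase centre and 3 lower in the head. After median-ratio scaling, the lower counts at D3 without it were 3 in the exit tunnel, 4 in the central protuberance, 5 in the head and 3 in the decoding centre, and the higher counts did not change.

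The third question was when along the course the genes moved. Between D1 and D3, 28 genes were called higher and 11 lower, against 17.2% and 13.7% of all genes. Between D3 and D5, 24 were higher and 5 lower, against 16.6% and 7.17%. After median-ratio scaling, 11 were higher and 6 lower in this step, against 11.2% and 10.4%. Without D3 replicate 1 these counts were 29 and 12, and 23 and 5. With 1.5-fold required, 4 genes were higher and 0 lower from D1 to D3 (background 6.63% and 3.93%), and 2 higher and 0 lower from D3 to D5 (3.72% and 2.05%). For these steps the shares of genes that averaged 1 FPKM or more are not given here. At D3 against C the share called higher was larger among those genes, 45.2% against 29% of all genes. Mrpl49 and Mrps6 had the largest rises from D3 to D5 (0.60 and 0.59). Mrps18b and Mrpl47 had the largest falls (-0.32 and -0.31).

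From D5 on, no gene was called between neighbouring time points by limma. From D5 to D7 the count was 0 in both directions (background 1.14% higher and 0.825% lower), with 12 genes at an unadjusted p under 0.05. From D7 to D14 it was 0 (1.18% and 1.36%), with 15 such genes, and 6 lower when D7 replicate 4 was left out. From D14 to D21 it was 0 (0.326% and 1.28%), with 6, and from D21 to D28 0 (0.367% and 0.109%), with 5. The limma-voom fit on recovered fragments also called 0 in these steps. With other settings, 1 gene was higher from D5 to D7 without D7 replicate 4 and 1 lower without D7 replicate 2. From D7 to D14, 1 was lower without D14 replicate 1, 1 was higher and 1 lower with the filter raised to an FPKM of 1, and 2 were higher after quantile normalization.

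The genes were next set beside other parts of mitochondrial and cytosolic translation at D3 and D28. Of 89 cytosolic ribosomal protein genes tested, 84 were higher and 1 lower at D3 and 81 and 1 at D28, with medians of 0.79 and 0.91. Of 92 nuclear genes of the respiratory chain and ATP synthase, 1 was higher and 78 lower at D3 and 7 and 64 at D28, with medians of -0.66 and -0.43. Of 13 mitochondrial messenger RNAs, 10 were lower at each of these days. The mitoribosomal protein genes lay between, with medians of 0.04 at both days, and of 0.0090 to 0.068 at D3 and 0.017 to 0.067 at D28 with 1 sample left out. After median-ratio scaling, 82 cytosolic ribosomal protein genes were still higher and 85 respiratory chain genes lower at D3. When D3 replicate 1 was left out, the D3 counts as deposited did not change for the cytosolic ribosomal and respiratory chain genes, and 11 mitochondrial messenger RNAs were lower.

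Both ribosomal RNAs of the mitoribosome had lower FPKM than C from D3 on, whereas the messages for its proteins were called in both directions. The small ribosomal RNA mt-Rnr1 had 1303 ± 231 FPKM in C (SD, n = 4) and 534 ± 36.0 FPKM in D14 (adjusted p = 2.2e-06, limma). The large one, mt-Rnr2, had 1545 ± 169 FPKM in C and 425 ± 103 FPKM in D7 (adjusted p = 2.9e-10). Both were higher than C at D1 and lower at the other 6 days. How much ribosomal RNA a library keeps depends on its preparation, and its part in these values was not tested.

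**Figure D5:**
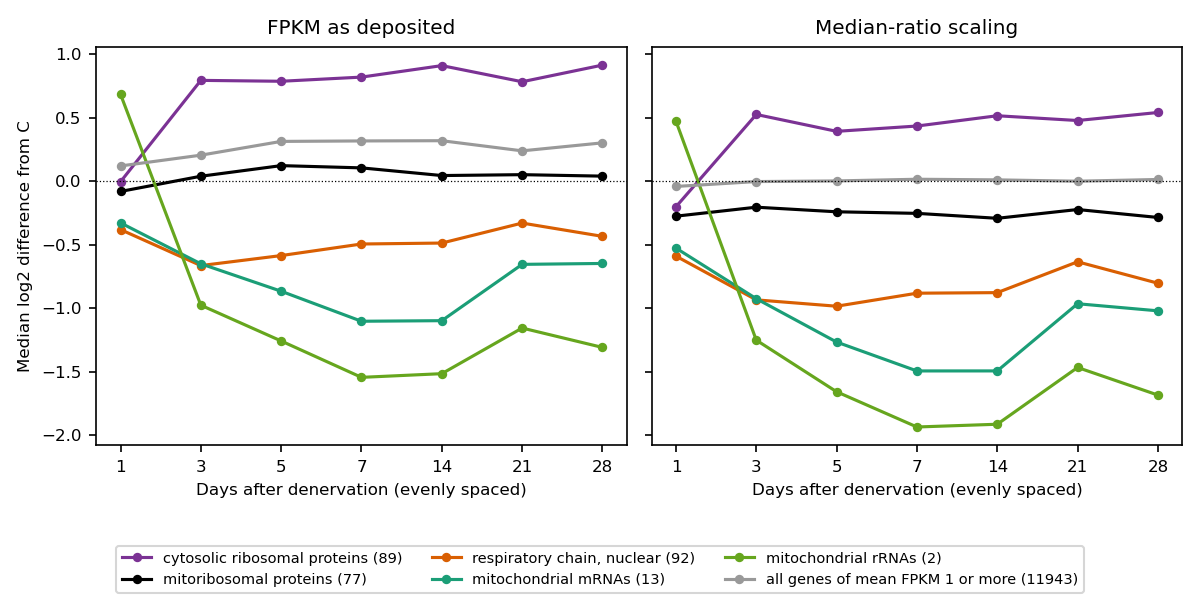
Median log2 difference from C of 5 gene lists and of all genes that averaged 1 FPKM or more, against day (evenly spaced), as deposited and after median-ratio scaling. Numbers of genes stand in the legend. The mitoribosomal protein genes lie near 0 as deposited, and between -0.29 and -0.20 after scaling, below the cytosolic ribosomal proteins and above the respiratory chain genes from D3 on.

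The lists that follow are to be read against the same shares of all genes, as deposited 29% higher and 14.3% lower at D3 and 37.8% and 9.85% at D28. After median-ratio scaling these shares are 20.5% and 23.9% at D3 and 20.5% and 19.9% at D28. The balance of most of the lists turned with the scaling. Of 5 mitoribosomal proteins with other names, 0 were higher and 2 lower at D3 and 2 and 0 at D28, and 0 and 3 at D3, and 0 and 2 at D28, after median-ratio scaling. Aurkaip1 had 36.2 ± 1.65 FPKM in C and 55.9 ± 2.06 FPKM in D7 (difference 0.62, adjusted p = 5.7e-11). Chchd1 had 97.9 ± 11.1 FPKM in C and 76.9 ± 5.58 FPKM in D1 (-0.34, adjusted p = 0.0012). Of 25 assembly factors, 7 were higher and 5 lower at D3 and 8 and 3 at D28, which became 3 and 11 at D3, and 2 and 13 at D28, after median-ratio scaling. Malsu1, which holds the large subunit apart from the small one during assembly by binding the Mrpl14 protein, had 11.1 ± 0.86 FPKM in C and 30.5 ± 3.77 FPKM in D3 (1.38, adjusted p = 2.7e-14). C1qbp, a matrix protein needed for mitochondrial translation, rose by 0.89 at D3. Mettl15, a methyltransferase of the small ribosomal RNA, rose by 0.89 at D21. Mrm2, a methyltransferase of the large ribosomal RNA, fell by 0.88 at D3.

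Of 14 translation factors tested, 2 were higher and 5 lower at D3 and 1 and 4 at D28, and 0 and 7 at D3, and 0 and 9 at D28, after median-ratio scaling. Taco1, the activator of translation of mt-Co1, had 32.0 ± 1.65 FPKM in C and 17.3 ± 1.86 FPKM in D3 (-0.85, adjusted p = 1.8e-12), and was lower at all 7 days. Mrrf, the ribosome recycling factor, rose by 0.46 at D5. Of 22 aminoacyl-tRNA synthetase genes, 7 were higher and 3 lower at D3 and 11 and 0 at D28, which became 5 and 9 at D3, and 4 and 7 at D28, after median-ratio scaling. The largest rises, Gars (1.55 at D7) and Kars (1.12 at D28), were of genes that serve the cytosol as well. Qrsl1, a subunit of the enzyme that makes glutaminyl-tRNA, fell by 0.74 at D3.

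Of 7 genes of mitochondrial transcription, 3 were higher and 1 lower at D3 and 2 and 0 at D28, which became 0 and 2 at D3, and 0 and 1 at D28, after median-ratio scaling. Mterf2 fell by 1.10 and the transcription factor Tfb2m rose by 0.55 at D3. Of 9 regulators of mitochondrial biogenesis, 6 were higher and 2 lower at D3 and 5 and 3 at D28, and 3 and 2 at D3, and 2 and 3 at D28, after median-ratio scaling. Myc had 1.87 ± 0.455 FPKM in C and 14.9 ± 1.58 FPKM in D3 (2.47, adjusted p = 2.7e-14). Esrra, the oestrogen-related receptor of oxidative genes, had 25.8 ± 1.61 FPKM in C and 11.6 ± 1.08 FPKM in D7 (adjusted p = 7.2e-10). Ppargc1b fell by 1.15 at D1 and Ppargc1a by 0.80 at D28, whereas Pprc1, of the same family of coactivators, rose by 1.00 at D1. Without D3 replicate 1, 8 assembly factors were higher, 6 translation factors lower and 2 transcription genes higher at D3 as deposited. The other deposited-scale D3 counts of these lists were as given. After median-ratio scaling, its omission gave 2 higher and 11 lower assembly factors, 0 and 9 translation factors, and 4 and 9 synthetase genes at D3. It gave 2 and 3 regulators, and 0 and 4 proteins with other names, while transcription genes kept 0 and 2.

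Summed levels of cell type markers also moved with the days. The 8 muscle fibre markers summed to 25518 to 30012 FPKM in D3 and 27104 to 31361 FPKM in D28. The 8 macrophage markers summed to 159 to 233 FPKM in C, 314 to 1108 FPKM in D3 and 529 to 619 FPKM in D28. The 5 genes of cell division summed to 0.986 to 1.60 FPKM in C and 12.3 to 37.0 FPKM in D3. None of these markers was at 0 in all samples of a group, and their part in the mitoribosomal results was not tested.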

How the data were processed

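RNA-seq libraries of GAS muscle from 32 samples in 8 groups of 4 were analysed. The authors deposited FPKM values, 1 per gene and sample. The submitters' processing notes name CASAVA, HISAT2 2.1.0 and GRCm38. The counter and annotation release are not given in the sources used here. Symbols came from GENCODE mouse M21 (33356 of 33397 genes matched). Whole fragments were recovered from the FPKM with the merged exon lengths of that release (99.3% to 99.4% of values below 200 fragments were whole within 0.05).

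Genes that reached 0.1 FPKM in 4 or more samples were tested on log2(FPKM + 1) with limma 3.58.1 (lmFit and eBayes with a variance trend, R 4.3.3), all 32 samples in 1 fit, with Benjamini-Hochberg adjustment within each contrast. Other steps used Python 3.11.15, numpy 2.4.6, pandas 2.3.3 and matplotlib 3.10.9. On simulated data for D3 against C, 95 of 100 genes changed 2-fold and 14 of 100 changed 1.25-fold were recovered among 21460 genes, with 9 false calls. The lowest correlation between replicates was 0.963. In the simulation only the planted genes changed, whereas 29% of all genes tested were called higher and 14.3% lower at D3 in the data. The adjusted threshold was thus stricter in the simulation, and its recovery of small changes does not carry over to these tests. How many small changes were missed here was not measured.

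The members, gene lists, motifs and tests were chosen with earlier results of these data known. Named genes were the 4 highest and 4 lowest mean differences per subunit, the extremes at each day, the most and least abundant per subunit, genes of role lists, and up to 4 per other list. Genes named outside this rule, among them Mrpl28, Mrpl32, Mrps6, the neighbours at promoters and the genes of the promoter stretches, were chosen after their values were seen. Alternatives covered the pseudocount, the filter, TPM, median-ratio and quantile scaling, the variance trend, limma-voom, fits of 2 time points and leaving out each sample.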

Additional observations from a re-analysis of the deposited data

Results flagged for a closer look

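Of 176 groups of 4 samples examined over the named genes and the family medians, 10 had a sample whose gap to its nearest neighbour took more of the whole range of the group than Dixon's test allows. Chance sets apart about 1 in 20 such groups, so this number is near what chance gives, and no cause was tested.

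Among genes that were higher after denervation, Mrpl24 was low in C replicate 3, at 12.6 FPKM against 15.5 to 15.7 FPKM in the other C samples, so that sample widened the rise. Mrpl57 was high in D5 replicate 4 (15.1 FPKM against 13.6 to 13.8 FPKM), and Mrps18b in D5 replicate 2 (12.8 FPKM against 11.2 to 11.3 FPKM). Mrpl49 was low in D1 replicate 3 (13.3 FPKM against 14.9 FPKM in each of the others).

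Among genes that were lower, Mrpl34 was low in C replicate 4 (44.8 FPKM against 55.9 to 58.2 FPKM) and high in D1 replicate 3 (41.6 FPKM against 32.2 to 33.7 FPKM). Mrpl42 was low in D21 replicate 3 (40.3 FPKM against 45.6 to 46.4 FPKM). Mrps23 was high in D3 replicate 4 (23.6 FPKM against 9.41 to 11.8 FPKM).

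For the whole family, the median log2 difference from the C mean was low in D5 replicate 2 (0.0565 against 0.116 to 0.120). The difference between the large-subunit and small-subunit medians was low in D21 replicate 1 (0.00772 against 0.0607 to 0.0684).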

How the results depend on the processing

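No paired analysis was possible because the columns of the table are tied to a time point but to no individual sample. A pseudocount of 0.1, the absence of a filter and limma-voom on recovered fragments left all 40 counts and medians of the family within 1.5 times or 1 SD, and a fit with no variance trend did so for the 26 counts. For the other lists median-ratio scaling and, at D3, the omission of D3 replicate 1 were run. For the 20 named genes, 330 of 340 values under the alternatives kept their direction and side of the threshold, 0 reversed, 5 lost the call (all Mrps26 at D21) and 5 gained it (all Mrps23 at D21).

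The scaling and a required fold both moved the counts of the family. On the TPM scale, 7 genes were lower at D1, 40 higher and 11 lower at D3, 51 and 4 at D5, 47 higher at D7, 47 and 5 at D14, 4 lower at D21, and 37 and 5 at D28, against 21.3% to 41.3% of all genes higher and 5.43% to 9.46% lower. After quantile normalization, 1 gene was higher and 42 lower at D1, 10 and 38 at D3, 8 and 40 at D5, 8 and 39 at D7, 9 and 40 at D14, 6 and 34 at D21, and 6 and 39 at D28, against 15.6% to 22.6% of all genes higher and 16.1% to 22.2% lower. Without D3 replicate 1, a choice made after seeing the data, the D3 counts were 8 and 45 with median-ratio scaling, 39 and 12 on the TPM scale and 8 and 44 after quantile normalization. After median-ratio scaling the counts were 0 and 44, 11 and 35, 8 and 43, 7 and 41, 4 and 42, 5 and 35, and 5 and 44 from D1 to D28. With a 1.5-fold change also required, 0 genes were higher and 1 lower at D1, 3 and 6 at D3, 7 and 2 at D5, 5 and 3 at D7, 2 and 3 at D14, 3 and 1 at D21, and 3 and 5 at D28.

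The median log2 difference of the 77 genes from D1 to D28 was -0.28, -0.20, -0.24, -0.25, -0.29, -0.22 and -0.29 after median-ratio scaling, 0.02, 0.20, 0.31, 0.30, 0.25, 0.19 and 0.21 on the TPM scale, and -0.23, -0.20, -0.20, -0.22, -0.25, -0.18 and -0.23 after quantile normalization. Averaged over the single D3 samples, large minus small hardly moved with median-ratio scaling, from 0.14 to 0.15. Taken from the fitted gene differences, large minus small was 0.13 at D3, 0.097 at D5, -0.046 at D7 and -0.059 at D14 after median-ratio scaling. After quantile normalization it was 0.088, 0.081, -0.066 and -0.084 at these days. With Mrps18a and Mrps30 in the large subunit and Mrps36 left out it was 0.056 at D1.

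Between time points, 20 genes were lower at D3 than at D1 after quantile normalization, and 4 higher and 0 lower with 1.5-fold required. From D3 to D5, 11 were higher after median-ratio scaling, 2 higher and 0 lower with 1.5-fold required, and 1 lower in a fit of those 2 time points alone. From D7 to D14, 1 was higher and 1 lower with a filter at an FPKM of 1, and 2 were higher after quantile normalization.

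Among the other lists, median-ratio scaling gave 3 higher and 11 lower assembly factors at D3, and 2 and 13 at D28. It gave 0 higher translation factors at D3 and 0 higher and 9 lower at D28. Synthetase genes counted 9 lower at D3 and 4 higher and 7 lower at D28, transcription genes 0 higher and 2 lower at D3 and 0 and 1 at D28, and regulators 3 higher at D3 and 2 at D28. Proteins with other names counted 0 higher and 2 lower at D28, and respiratory chain genes 2 higher at D28.

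With 1 sample left out at a time, lower genes at D21 ranged from 8 (without C replicate 1 or D21 replicate 4) to 14. From D5 to D7 higher and lower genes each ranged from 0 to 1, and from D7 to D14 lower genes ranged from 0 to 6. The family median ranged from -0.11 to -0.042 at D1, 0.0090 to 0.068 at D3, 0.082 to 0.14 at D5, 0.065 to 0.14 at D7, 0.035 to 0.098 at D14 0.039 to 0.097 at D21 and 0.017 to 0.067 at D28. Large minus small ranged from 0.020 to 0.074 at D1, 0.15 to 0.21 at D3, 0.086 to 0.11 at D5, -0.022 to 0.069 at D7, -0.064 to 0.023 at D14 and 0.016 to 0.069 at D21. The cause of these shifts was not tested.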

Other observations

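Other short motifs were no more frequent in the promoter windows of the mitoribosomal protein genes, or only slightly so. The Sp1 letters GGGGCGGG were in the windows of 20 of 68 genes (29.4%) against 24.6% of protein-coding genes, the TATA letters TATAAA in 5 (7.35%) against 14.8%, and the E-box letters CACGTG in 5 (7.35%) against 8.91%. As deposited, the 5 genes with the E-box letters had a median mean difference of 0.22, with a range from -0.13 to 0.25, and the 63 without had a median of 0.04.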
